A study of Gallus gallus with 12 samples.

Results

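This account concerns the effect of retinoic acid alone on the maxillary prominence of the chicken embryo, the bud of the embryonic face from which the side of the upper beak grows. It rests on the 3 arrays labelled "Tris and Retinoic Acid" (Tris+RA) and the 3 labelled "Tris and DMSO" (Tris+DMSO), 6 of the 12 arrays in the series, chosen by their titles and not by any measured value. Every embryo received a pair of beads in the side of the head at Hamburger-Hamilton stage 15 (25 somites). In the Tris+RA group 1 bead carried only the buffer Tris and the other, an AG1X2 bead of 100 µm, had been soaked in all-trans-retinoic acid (RA) at 1 mg/ml. In the Tris+DMSO control the RA bead was replaced by one soaked in its solvent, dimethylsulfoxide (DMSO), so that controls had bead implants too. In the Noggin+RA and Noggin+DMSO groups, 3 arrays each, the Tris bead was replaced by an Affigel blue bead of 200 µm soaked in the BMP antagonist Noggin at 1 mg/ml. Prominences were taken 16 h later, at stage 18, and each array measured RNA of 1 pool of 12 to 15 pieces holding mesenchyme and epithelium together. Embryos of a pool can therefore differ in bead position and response without this showing, and the RA that reached the tissue was not measured. The labels count each pool as a biological replicate.

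Retinoic acid is made from vitamin A by retinaldehyde dehydrogenases (the ALDH1A enzymes) and broken down by CYP26 enzymes, so the cells of the face can set their own level. It acts through RAR and RXR receptors that sit on the DNA of target genes. Among the targets it is best known for are CYP26A1, DHRS3 and RARB, which feed back on its level and its reception. The 3′ HOX genes, which give position to the hindbrain and posterior pharyngeal arches, are others. In the face, excess RA is known to disturb outgrowth of the upper beak, while bones of the maxilla depend on patterning factors such as LHX8, BARX1 and DLX genes.

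The 6 arrays were alike in the share of signal above background and in RNA integrity, while 1 control array stood apart in other measures. The share of chicken probe sets above background (the 95th percentile of virus probe sets) ran from 51.1% to 53.4% with RA and from 51.8% to 53.1% in the control. The 5′ to 3′ ratio of the GAPDH control, which follows RNA integrity, was 0.784 to 0.849 with RA and 0.813 to 0.839 in the control. Tris+DMSO replicate 1 had a limma array weight of 0.471, the lowest of all 12 arrays. Its median intensity was 33.9, against 38.9 and 39.8 in the other control arrays. Its mean correlation with those control arrays was 0.972, the lowest within a group among the 6. Markers of the labelled tissue were present: the mesenchymal homeobox gene PRRX1 lay between 840.5 and 1721 over the 6 arrays, and the epithelial adhesion gene EPCAM between 2158 and 2638. All values below are deposited intensities, on a linear scale, and all differences are log2 ratios of value + 16 with the standard error (SE) of a limma fit to all 12 arrays. Because the pools mix cell types, fewer cells of a type and less RNA per cell cannot be told apart in any of these values.

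Over the 21354 chicken probe sets tested, 0 differed between Tris+RA and Tris+DMSO at a Benjamini-Hochberg adjusted p below 0.05 (0%). An unadjusted p below 0.05 was found for 1368 (6.41%), 654 of them higher with RA (3.06%) and 714 lower (3.34%). With no difference in any probe set, 1068 would be expected below that threshold. By other fits the count stayed at 0 with array weights, with the replicate number as a block and with the 2 groups alone, and was 8 with a trended robust prior and 21 without Tris+RA replicate 1. The values of the groups did not overlap in 2211 probe sets (10.4%), which were higher with RA in 4.91% and lower in 5.44% of those tested. With 1 probe set per gene, 5.44% of genes were higher and 5.64% lower without overlap. A random order of the arrays separates groups of 3 about this often, so lack of overlap in a gene is by itself no sign of an effect. Genes named below as having large differences, 15 in each direction, were the largest among genes with groups that did not overlap and an unadjusted p below 0.01. Those values chose them, so their differences describe these arrays. The 15 positive ones had log2 differences from 1.24 to 3.17 and adjusted p from 0.0557 to 0.520. The 15 negative ones had log2 differences from -1.63 to -0.86 and adjusted p from 0.119 to 0.529. For HOXA3, EPHA4, NKX3-2 and F13A1, whose lower group was mostly below background, the fold is given below only as a lower bound. No control array of HOXA3 or EPHA4, and no Tris+RA array of F13A1, reached its array's median. These genes passed the filter for testing through other arrays, those of their higher group among them. Their ranking rests on values mostly below background, so their place among the 15 is uncertain. The genes just outside were HIC1, at a log2 difference of 1.15, and EBF2, at -0.85.

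Enzymes that remove RA and its precursor included the gene with the largest difference, CYP26A1, and DHRS3. CYP26A1, the main enzyme that degrades RA, was at 507, 2711 and 1933 in Tris+RA replicates 1, 2 and 3 and at 90.9, 192 and 156 in the control arrays. The groups did not overlap, and the lowest RA array stood 3.35-fold above the control mean where the highest stood 17.4-fold above it. The difference was 3.17 (SE 0.57, limma adjusted p = 0.155). DHRS3, which reduces retinaldehyde back to retinol and so lowers the supply for RA synthesis, was at 560, 1691 and 966 with RA and at 178, 229 and 235 in the control (2.11, SE 0.31, limma adjusted p = 0.119). Its dimmer probe set was at 49.0, 166 and 119 against 8.19 to 27.6, where all 3 control arrays lay below background, so that it was at least 2.27-fold higher. No control array of this probe set reached its array's median, while all 3 RA arrays did. It therefore passed the filter for testing through RA arrays, which favours a positive difference, and it gives no separate support. CYP26B1, a second RA-degrading enzyme, was at 76.3, 319 and 261 with RA and at 55.1 to 66.5 in the control (1.43, SE 0.43, limma adjusted p = 0.459). Replicate 1 was only just above the control arrays here. CYP26C1, the remaining member of the family, was at 165, 408 and 322 with RA and at 197, 151 and 183 in the control (0.63, unadjusted p = 0.0383), so in replicate 1 it lay inside the control range. All 4 tested members of this list of 7 were higher by an unadjusted p below 0.05, where 3.33% of the 10158 genes were, and 0 passed the adjusted test; their median difference was 1.77. LRAT, which esterifies retinol for storage, was on the array and too dim to test.

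**Figure D1:**
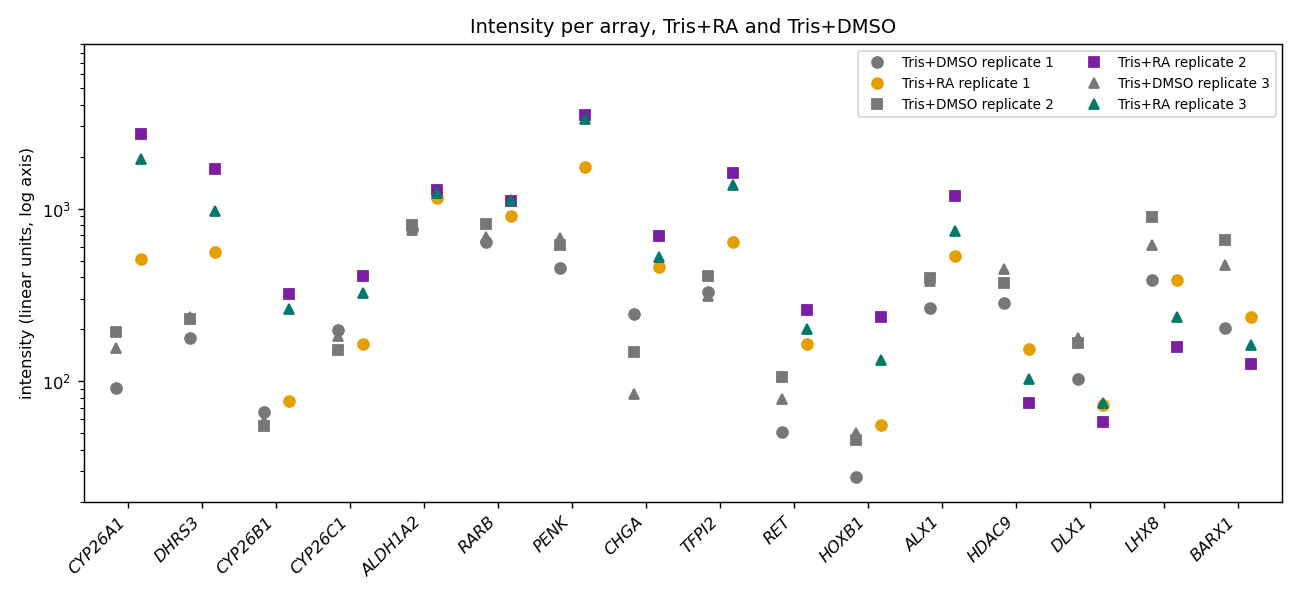
Intensity on each array (log axis) of 16 genes, with grey symbols for the 3 Tris+DMSO arrays, coloured ones for the 3 Tris+RA arrays and 1 shape for each replicate number. CYP26A1 at 507 to 2711 lies above the control values of 90.9 to 192, and the RA arrays of CYP26C1, LHX8 and BARX1 overlap the controls.

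Among the genes of RA synthesis, ALDH1A2, the main RA-making enzyme of the embryo, was the 1 that stood apart. Its brightest probe set was at 1145, 1275 and 1235 with RA and at 758, 805 and 753 in the control (0.65, SE 0.18, limma adjusted p = 0.383), and a dimmer probe set at 320, 380 and 341 against 132, 171 and 168 (1.07, adjusted p = 0.131). In both the groups did not overlap, and unlike CYP26A1 and CYP26B1 the 3 RA arrays lay close together. ALDH1A3, a second enzyme of this step, was at 100, 145 and 122 with RA and at 68.0, 89.0 and 299 in the control, where replicate 3 alone was high. Of 8 synthesis genes 5 were tested and 1 was higher by an unadjusted p below 0.05, where 3.33% of all genes were. The list median of 0.18 was 0.04 without Tris+DMSO replicate 1, 0.09 without Tris+RA replicate 2 and 0.00 when each gene was averaged over its probe sets.

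Among receptors and cofactors, RARB, the receptor gene best known as an RA target, was at 905, 1109 and 1127 with RA and at 641, 811 and 685 in the control (0.55, SE 0.14, limma adjusted p = 0.345). NRIP1, a corepressor that binds ligand-occupied receptors, was at 1505, 1755 and 1739.5 with RA and at 1396, 1189.9 and 1171 in the control (0.41, adjusted p = 0.445). Both were higher on every RA array than on any control array. The differences of RXRA, RXRG, NR2F2, NCOR1, NCOA1 and NCOA2 lay between -0.19 and 0.13, and each overlapped between groups. In all, 2 of 9 tested were higher by an unadjusted p below 0.05 and 0 lower, with a list median of -0.05. Of all genes, 3.33% were higher and 3.30% lower by that threshold. Without overlap between groups, 3 of the 9 were higher and 0 lower, where 5.44% and 5.64% of all genes were. Of the retinoid binding proteins, RBP5, a cellular retinol binding protein, was at 399.7, 702 and 549.9 against 331 to 421, and CRABP1, which binds RA in the cytoplasm, at 725 to 907 against 622 to 846. Of these 4 tested, RBP5 alone was higher by an unadjusted p below 0.05 (median 0.08). Of 11 further genes listed as RA targets in other tissues, among them TGM2 (a transglutaminase), MEIS2 and PBX3 (homeobox partners of HOX proteins) and CDX1, 0 had an unadjusted p below 0.05 and the median was -0.02, against a median of -0.01 over all probe sets.

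HOX genes were close to background in this tissue, as 11 of 17 on the array were too dim to test. HOXB1, a first responder to RA in the hindbrain, was at 55.6, 234 and 133 with RA and at 27.8, 45.8 and 49.97 in the control (1.30, SE 0.41, limma adjusted p = 0.520). HOXA3 was at 19.4, 86.0 and 49.5 with RA, while all 3 control arrays (3.05, 6.995 and 14.9) lay below background, giving at least 1.20-fold. HOXA4 was at 73.8 and 50.9 in replicates 2 and 3, while replicate 1 (11.5) and all 3 control arrays (21.6 to 25.2) lay below background. In each of these 3 genes replicate 2 was highest, and in HOXA3 and HOXA4 replicate 1 lay below background. No control array of HOXA3 or HOXA4 reached its array's median, so both passed the filter for testing through other arrays, RA arrays among them. The filter therefore favours a positive list median. That median of 0.42 over 6 genes was 0.77 without Tris+RA replicate 1, and 0.05 over all HOX genes on the array. Of the 6 tested HOX genes, HOXB1 and HOXA3 were higher by an unadjusted p below 0.05 and 0 lower. Without overlap between groups, 3 of the 6 were higher and 0 lower, where 5.44% and 5.64% of all genes were. Of 7 tested genes of hindbrain and neural tube, SOX2 and OLIG2 were higher by an unadjusted p below 0.05 and 0 lower, where 3.33% and 3.30% of all genes were. The summed intensity of the list was 807 to 850.3 with RA and 692 to 1275 in the control. The median difference of that list was -0.11, 0.27 and 0.14 in Tris+RA replicates 1, 2 and 3, the same order as in the HOX genes. Their part in the HOX values was not tested.

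Outside the retinoid pathway the clearest single gene was PENK, the precursor of the enkephalin peptides. It was at 1736, 3487 and 3303 with RA and at 455, 614 and 673 in the control. The lowest RA array lay well above the highest control array, and the difference of 2.21 (SE 0.28) came with an adjusted p of 0.0557, which no other gene went below. With the same adjusted p, 1 probe set without a gene symbol was at 319, 266 and 210 with RA and at 632, 890.1 and 699 in the control (-1.43, SE 0.17). Both passed the test under median centring (limma adjusted p = 0.0261 for the smaller).

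The other large positive differences covered secreted proteins, receptors and enzymes. CHGA, a protein of secretory granules, was at 459, 696 and 525 with RA and at 246, 148 and 84.1 in the control (1.81, SE 0.39). TFPI2, a serine protease inhibitor of the matrix, was at 639, 1604 and 1376 against 328, 405 and 313 (1.65, SE 0.32). CCBE1, a secreted protein needed for lymphatic vessel growth, was at 123, 244 and 246 against 87.7, 64.9 and 51.1 (1.36, SE 0.27). In these 3 genes Tris+RA replicate 1 was again the lowest RA array. RET, the signalling receptor for GDNF-family ligands, was at 164, 258 and 201 with RA and at 50.8, 106 and 79.0 in the control (1.26, SE 0.20, limma adjusted p = 0.119). EPAS1, a hypoxia-inducible transcription factor subunit, was at 758, 989 and 927 against 344, 281 and 265 (1.54, SE 0.27), with little spread in either group. FBXO32, a ubiquitin ligase subunit known from muscle atrophy, was at 101, 429 and 277 against 42.1 to 54.2 (1.91, SE 0.50). ASTL, a zinc metalloprotease of the astacin family, was at 76.0, 426 and 177 against 38.5 to 57.0 (1.65, SE 0.47, and 1.07 without Tris+RA replicate 2). In both the RA arrays ranged widely. CMBL, a hydrolase, was at 156 to 212 with RA and at 56.8 to 87.3 in the control, and EPHA4, an ephrin receptor of axon guidance and tissue boundaries, at 51.8 to 89.6 against 15.8 to 33.4, where 1 of 3 control arrays was above background (at least 1.67-fold). These were the only 2 of the 15 in which replicate 1 was not the lowest RA array.

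Large negative differences were led by HDAC9, a histone deacetylase, at 153, 74.3 and 103 with RA and 284, 369 and 447 in the control (-1.63, SE 0.25, limma adjusted p = 0.119). SOCS2, a feedback inhibitor of cytokine signalling, was at 128, 58.9 and 103 against 202, 304 and 313 (-1.39, SE 0.27). In both, replicate 1 lay nearest the control and replicate 2 farthest from it. MAB21L1 and MAB21L2, related genes needed for eye formation, were at 31.3 to 97.1 against 116 to 211 and at 69.5 to 152 against 184 to 274. COL23A1, a transmembrane collagen, was at 649, 307 and 524 against 1358, 851 and 978 (-1.12, SE 0.24), and NXPH1, a ligand of neurexins, at 103 to 131 against 220.2 to 454. HOMER2, a scaffold protein, was at 84.2 to 143 with RA and at 212 to 264 in the control. LAMB4, a laminin chain, was at 54.5, 43.2 and 6.84 against 85.7 to 120.4, where replicate 3 lay below background, and the difference of -1.32 was -0.82 without that array. LMCD1, a LIM domain protein, was at 87.7 to 180.4 against 224 to 258, AHDC1, an AT-hook protein, at 12.8 to 50.5 against 57.6 to 91.3 (-0.94, and -0.58 without Tris+RA replicate 1), and F13A1, the A subunit of clotting factor XIII, at 2.68 to 31.0 against 41.2 to 58.2. All 3 RA arrays of F13A1 were below background, so it was at least 1.24-fold lower.

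Patterning factors of the maxilla and first arch went both ways. Of 18 tested, 8 were lower (3.30% of genes were) and 3 higher by an unadjusted p below 0.05, 0 passed the adjusted test, and the median was -0.31. DLX1, a distal-less homeobox gene of the proximal arch, was at 72.7, 57.8 and 74.4 with RA and at 103, 165 and 177 in the control (-0.94, SE 0.20), and DLX5, a distal-less gene of the ventral arch, at 427, 411 and 399.7 against 635, 755 and 882 (-0.84). Both had close RA arrays and no overlap. TWIST2, a bHLH factor of the mesenchyme, was at 32.8 to 82.0 against 123 to 138 (-1.07), and NKX3-2, a homeobox gene of the jaw joint, at 13.1 to 38.8 against 53.6 to 99.7 (-1.01; at least 1.68-fold lower, as 1 of 3 RA arrays was above background). LHX8, a LIM homeobox factor needed for the palate, was at 387, 157 and 234 with RA and at 383, 895 and 615 in the control (-1.24, SE 0.36), and BARX1, a homeobox gene of the arch mesenchyme, at 235, 125 and 162 against 203, 654 and 469 (-1.16, SE 0.42). In both genes the first control array lay below RA replicate 1 but above RA replicates 2 and 3, so the groups overlapped. The rest of the 8 were DLX6, at 4.67 to 12.3 against 16.9 to 65.8 and at or near background in both groups, and PRRX1 (-0.47). Higher were MEOX2, a homeobox gene of mesodermal cells, at 415, 552 and 494 against 231, 302 and 241 (0.87, SE 0.13, adjusted p = 0.119), PITX1, a homeobox gene of the lower jaw and hindlimb, at 418, 481 and 300.3 against 201 to 218 (0.85, SE 0.18), and PRRX2 at 431 to 553 against 319 to 428 (0.41). TBX22, required for palate formation, overlapped between groups (63.8 to 78.4 against 35.6 to 72.5). The median of these factors was -0.22 without Tris+DMSO replicate 2.

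Frontonasal factors were led by ALX1, an aristaless-like factor of the midface, at 528, 1175 and 742 with RA and at 267, 397 and 382 in the control (1.13, SE 0.31, limma adjusted p = 0.383), with replicate 1 the lowest again. Of 12 tested, ALX1, SOX2 and EMX2 were higher and TFAP2B, at 335 to 437 against 515 to 635, was lower by an unadjusted p below 0.05, with a median of -0.08. Over all genes 3.33% were higher and 3.30% lower by that threshold. Among BMP signalling targets, BAMBI, a decoy receptor, was at 1216, 2485 and 1645 with RA and at 848, 841 and 771 in the control (1.05, SE 0.24, limma adjusted p = 0.279), and GATA3, a zinc finger factor, at 223, 345 and 213 against 95.4, 119 and 186 (0.90). SMAD6, an inhibitor of the pathway, was at 917 to 1066 against 664 to 811. The ID genes did not share this: ID1, a direct target of BMP signalling, was at 1868, 2020.5 and 2227 with RA and 2139, 1735 and 1925 in the control, and ID2, ID3 and ID4 differed by 0.13, -0.11 and 0.22. Of 14 tested, 3 were higher and 0 lower by an unadjusted p below 0.05 (median 0.08). Without overlap between groups, 3 were higher and 3 lower, where 5.44% and 5.64% of all genes were. Of 12 BMP ligands, receptors and antagonists, the antagonists BMPER and CHRDL1 and the ligand BMP5 were higher and BMP4, at 29.3 to 36.0 against 39.99 to 65.8, and FST were lower by that threshold (median -0.06).

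Cartilage and bone genes lay mostly on the lower side. CYTL1, a secreted protein of cartilage, was at 1301, 995 and 1144 with RA and at 2255, 1885 and 1931 in the control (-0.81, SE 0.15, limma adjusted p = 0.189), with no overlap. COL1A1 and COL1A2, the chains of type I collagen, were at 1302 to 1669.8 against 1750.1 to 2161 and at 1372 to 2258 against 2106 to 2991. HAPLN1, which links hyaluronan to proteoglycans, was higher, at 563 to 575 against 426 to 452. Of 12 tested, 9 had a negative and 3 a positive difference, and 10 of 22 on the array were too dim to test. By an unadjusted p below 0.05, 4 of 12 were lower and 1 higher (median -0.27), where 3.30% and 3.33% of all genes were. In the FGF pathway, FGF19 was at 151, 218 and 105 against 63.2 to 85.1 (0.94, SE 0.20), and FGFR2 at 1844 to 2168 against 1467 to 1675, the 2 of 15 that were higher, with 0 lower (median -0.06). In the WNT pathway the secreted inhibitors WIF1 (56.2 to 61.4 against 89.2 to 162), SFRP1 (487 to 535 against 625 to 903) and FRZB were lower and WNT6 and FZD1 higher among 26 (median -0.02). In the hedgehog pathway FOXC2 was higher and DISP1, which releases the ligand, lower (251 to 492 against 585 to 627) among 10 (median -0.04), and of 11 Notch pathway genes 0 passed in either direction (median -0.09). Among 23 matrix and proteolysis genes, 5 were higher, led by TFPI2 and PLAU (urokinase, 188, 322 and 235 against 91.3, 123 and 143), and POSTN was lower (median 0.02). Cell cycle genes had a median of -0.02, with CCND1 (523 to 556 against 663 to 1036) and CCND2 lower and 0 higher of 24, and apoptosis and p53 target genes a median of -0.02 with 0 of 15 in either direction. For a single probe set, a shift of the size of the median SE, 0.16, could not be told from none. Far larger differences missed the adjusted test too, such as that of CYP26A1 at 3.17. This SE does not apply to list medians.

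The RA arrays responded unevenly, in an order that was shared by many of the genes with large differences. Each response was set against the mean of the 3 control arrays and not against the same-numbered control. Tris+DMSO replicate 1 was the lowest control array in CYP26A1, DHRS3, PENK and RET and the highest in CHGA, CCBE1 and EPAS1. Whether the order would hold against same-numbered controls was not tested. Over the 15 largest positive differences, Tris+RA replicate 1 was the lowest RA array in 13 and replicate 2 the highest in 13. The median difference from the control mean was 0.98 in replicate 1, 2.14 in replicate 2 and 1.67 in replicate 3. Over the 15 largest negative ones, replicate 1 was nearest the control in 12 and replicate 2 farthest in 11, with medians of -0.69, -1.41 and -1.10. Among all 1049 probe sets that were higher without overlap, replicate 1 was lowest in 42.6%, and among the 1162 lower ones it was nearest the control in 41.1%. The order was therefore stronger among the genes with large differences than among all probe sets whose groups did not overlap, a description with no test. A count over all probe sets did not follow this order. Against pairs of control arrays, 290 probe sets of replicate 1, 420 of replicate 2 and 252 of replicate 3 were beyond 2-fold, and 413, 178 and 256 of the control arrays against the other two. The median SD of log2 values within a group was 0.159 with RA and 0.187 in the control, but over the 15 positive genes it was 0.700 and 0.287, and 11 of the 15 varied more with RA. The same RA values chose these genes, so their spread describes them only.

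**Figure D2:**
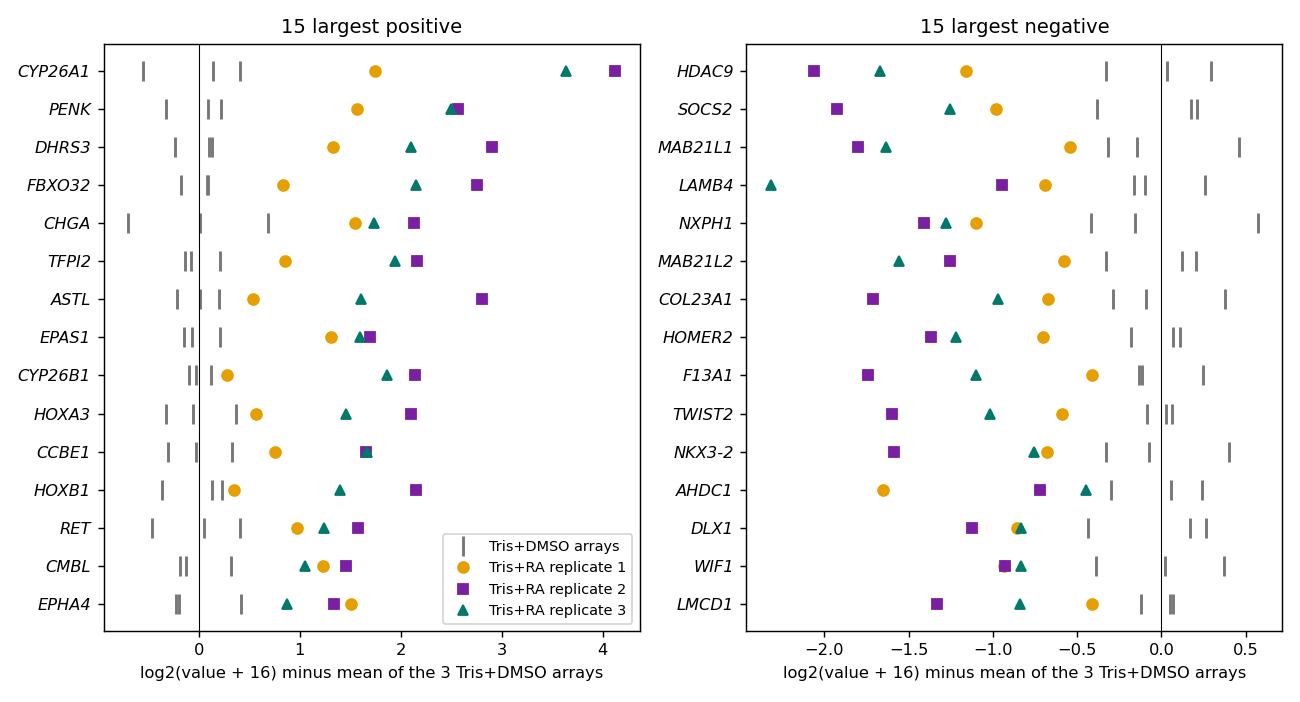
Log2 difference of each array from the mean of the 3 Tris+DMSO arrays, for the 15 genes with the largest positive differences (left) and the 15 with the largest negative ones (right); grey ticks are the control arrays. Replicate 1 lies nearest the control in 13 of 15 genes on the left and 12 of 15 on the right.

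Medians of the gene lists on each RA array are set beside this order. The median of the RA breakdown list was 0.81, 2.52 and 1.99 in replicates 1, 2 and 3, and that of the HOX list 0.11, 0.94 and 0.74. CYP26A1, DHRS3, CYP26B1, HOXB1 and HOXA3 in these lists are also among the 15 positive genes. HOXA3 and HOXA4 also passed the filter for testing without any control array. These lists therefore give no separate view of the order. The maxillary list was at -0.48, -0.34 and -0.36 and the cartilage list at -0.33, -0.40 and -0.22, so these did not follow it. The list of the labelled maxillary mesenchyme, at -0.32, -0.61 and -0.47, did. It is not separate from the maxillary list, as PRRX1, TWIST1, MSX1, DLX2, LHX8 and BARX1 are on both. The FGF list was at -0.11, 0.23 and 0.02. Markers of other cells differed between the RA arrays as well. The summed intensity of red blood cell genes was 23993, 17189 and 20569 in replicates 1, 2 and 3, against 22337, 19752 and 11495 in the control, and SLC4A1 (band 3) was at 479, 154 and 222. Their part in the order of the RA arrays was not tested.

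**Figure D3:**
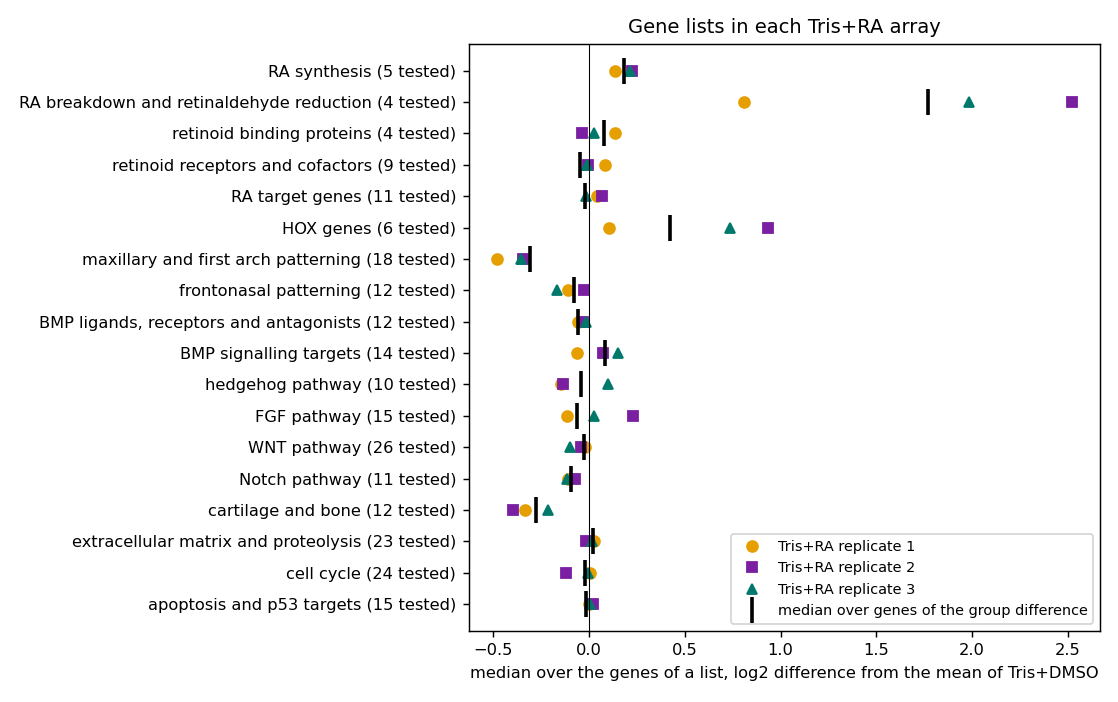
Median over the tested genes of each pathway list of the log2 difference from the control mean, in each Tris+RA array (coloured symbols) and for the group difference (black tick). The RA breakdown list spreads from 0.81 to 2.52 and the HOX list from 0.11 to 0.94, while the other lists lie between -0.48 and 0.23 on all 3 arrays. In the HOX list, HOXA3 and HOXA4 passed the filter for testing without any control array.

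Leaving out Tris+RA replicate 1, which was done knowing that its values were low, gave 21 called probe sets (0.0983% of those tested), 12 higher and 9 lower. Without any other of the 6 arrays the count was 0. In 20 of the 21, all but KIF5B, replicate 1 lay on the same side of the control mean as the other RA arrays but nearer to it, and in 19 the 6 arrays did not overlap. Probe sets that pass only without replicate 1 are mostly those where it lay nearer the control. That position therefore follows from the choice and is no separate result. PENK (2.53), DHRS3 (2.50, and in its dimmer probe set, whose control arrays lay below background and below their array's median), CYP26A1 (3.88), TFPI2 (2.05), CCBE1 (1.66) and RET (1.41) rose in that fit. So did CA9, a carbonic anhydrase, at 1949, 3043 and 2712 with RA against 1341, 1035 and 1247, CD38, an NAD-consuming membrane enzyme, at 242, 420.2 and 393 against 139.7 to 199, and MEOX2. HDAC9 (-1.86), MAB21L2 (-1.40) and HOMER2 (-1.29) fell in it. EBF2, an early B cell factor of mesenchyme, at 197, 80.1 and 102 against 201 to 242, MAP3K7CL, at 143, 81.8 and 96.0 against 162 to 212, and POSTN, the matrix protein periostin, at 1026, 382 and 556 against 1022 to 1491, also fell. PEMT, an enzyme of phosphatidylcholine synthesis, and KIF5B, a kinesin at 179.6, 42.9 and 35.1 against 124 to 169.7, fell in 1 probe set each. For PEMT both other tested probe sets went the opposite way over all 6 arrays. The other 3 had no gene symbol. The limma adjusted p of the 18 with a symbol ran from 0.0104 to 0.0423. Because the array was left out for its known low values, these adjusted p and the 21 calls cannot be taken at face value. They are given as a description only.

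The Noggin+RA and Noggin+DMSO arrays, which share no array with the groups above but entered the same fit, give a separate measure of the RA effect in the presence of a BMP antagonist. Of the 15 positive genes 14 were also higher there, 13 of them without overlap (9.12% of genes were), with a median difference of 1.32 beside 1.54 without Noggin. Over all 10158 genes, 55.5% had the same sign in both comparisons, and among the 338 genes higher by an unadjusted p below 0.05 without Noggin, 69.2% did. At an adjusted p below 0.05, 95 of all probe sets passed in these arrays (0.445%; 0.229% higher and 0.215% lower), and 4 of the 15 rose with RA in the Noggin arrays (0.335% of genes did): PENK (2.63, limma adjusted p = 0.00378), CYP26A1 (3.40, 0.0315), DHRS3 (1.88, 0.0313) and CMBL (1.32, 0.0438). PENK, at 2975, 1618 and 2795 in Noggin+RA and 346, 391 and 373 in Noggin+DMSO, kept its call whichever Noggin array was left out. DHRS3 kept it in 0 of the 6 cases and CYP26A1 and CMBL in 1 each, with adjusted p up to 0.157, and with the replicate block their adjusted p was 0.0516, 0.0669 and 0.0778. The GAPDH ratio was 0.703 to 0.736 in Noggin+RA and 0.619 to 0.699 in Noggin+DMSO, and with that ratio as a covariate the count of called probe sets was 1 in place of 95. The ratio did not overlap between these groups, so its part and that of RA cannot be told apart in this fit. Outside the 15, MEOX2 (0.86), ALX1 (1.86), PITX1 (1.13), PLAU (1.56), CYP26C1 (1.75) and the dimmer probe set of ALDH1A2 (1.05) rose there too, but each lost its call in at least 4 of the 6 cases. HAPLN1 (1.47) and ID1 (1.26) also rose and DLX5 (-2.11) fell, each keeping its call in 6 of 6 cases; ID1 differed by 0.08 without Noggin (limma adjusted p = 0.248 for the difference of the effects). Noggin arrays were also uneven: Noggin+RA replicate 2 was the lowest of its group in 13 of the 15 positive genes, with CYP26A1 at 1236, 399.8 and 1359.8 and the control at 57.9 to 79.6.

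Of the 15 negative genes, 13 were also lower in the Noggin arrays, 6 without overlap (9.56% of genes were), and the median difference was -0.46 beside -1.10. At an adjusted p below 0.05, 2 fell there (0.236% of genes did), COL23A1 (-1.47, limma adjusted p = 0.026) and F13A1 (-1.58, 0.0438), and both lost the call in all 6 cases of leaving out a Noggin array. Because the genes were chosen for large differences without Noggin, the smaller medians with it are given without a reading. The test of the difference between the RA effects passed for 0 probe sets of 21354 (1274 had an unadjusted p below 0.05, 5.97%). EPAS1 had the largest gap among the positive genes, at 868, 352 and 519 in Noggin+RA and 489, 678 and 747 in Noggin+DMSO (difference between the effects -1.74, SE 0.38, limma adjusted p = 0.406). DLX1 went from -0.94 without Noggin to -0.01 with it (limma unadjusted p = 0.00712 for the difference of the effects). By an unadjusted p below 0.05 for that difference, 8 of the 15 negative and 1 of the 15 positive genes passed. The test reuses the values that chose these genes, so these p are given without a reading. ALDH1A3 differed by -0.03 without Noggin and by -2.42 with it (limma adjusted p = 0.0313 for the latter, lost in all 6 cases), where Noggin+DMSO was at 1025 to 1708.

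**Figure D4:**
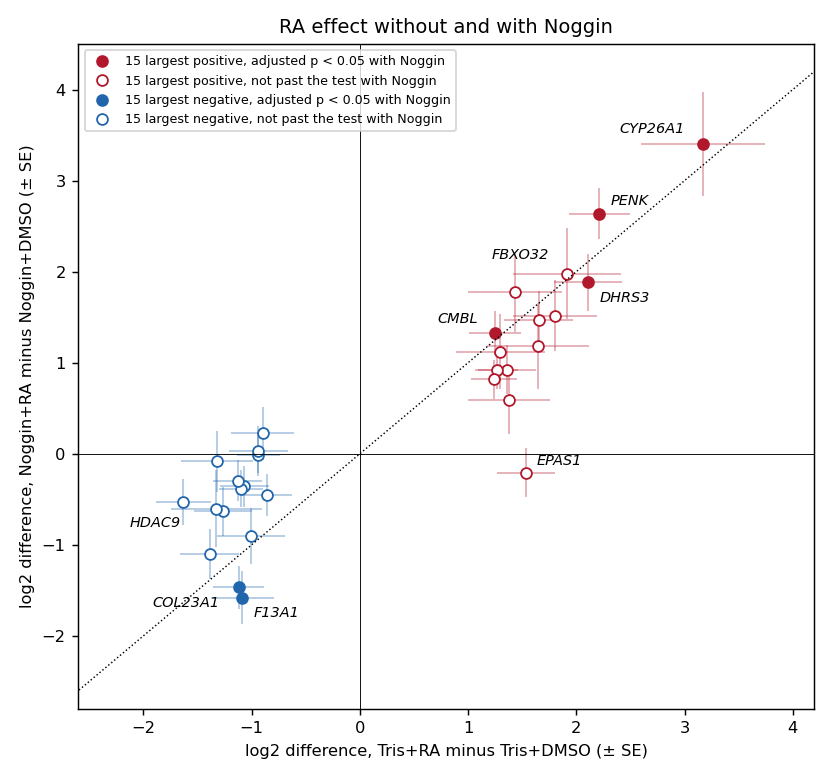
Log2 RA difference without Noggin (x axis) and with Noggin (y axis), each with its SE, for the 15 genes with the largest positive (red) and negative (blue) differences without Noggin; filled points passed an adjusted p below 0.05 with Noggin and the dotted line marks equal values. CYP26A1, PENK and DHRS3 lie near the line, and EPAS1 lies at 1.54 without and -0.21 with Noggin.

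Markers of other cell types were followed because a pool can hold neighbouring tissue. By an unadjusted p below 0.05, 3.33% of all genes were higher and 3.30% lower. Skeletal and cardiac muscle genes had a median of 0.31 over 14, with TNNT3, MYL4 and TNNC1 higher by that threshold, and a summed intensity of 4649 to 5019.9 with RA and 3616 to 4601 in the control. The muscle regulators MYOD1 and MYOG were too dim to test. Neuronal genes had a median of 0.35 over 11, and their sum was 5402 to 6536 with RA and ran from 2112 to 6879 in the control. CHGA, which is on that list, was the 1 of the 11 past the unadjusted threshold, while STMN2, a marker of young neurons, was at 425 to 699 against 231 to 841. The neuronal median was 0.67 without Tris+DMSO replicate 1 and 0.06 without Tris+DMSO replicate 3, and the part of nerve tissue in the CHGA values was not tested. Red blood cell genes had a median of 0.23 over 11 with 0 in either direction, and -0.01 without Tris+DMSO replicate 3. White blood cell and thrombocyte genes were at -0.11 over 10, with F13A1 the 1 lower. Surface epithelium (0.02 over 12, DSP lower), endothelium (0.02 over 14, FLI1 and ERG lower), neural crest glia (0.14 over 6, MITF lower) and lens (-0.06 over 9, PROX1 lower) had 0 members higher. Retina and pigment epithelium was at -0.21 over 8, with OTX2 (228 to 301 against 371 to 451) and MITF lower. The hindbrain list was at 0.17 over 7. The list for the labelled maxillary mesenchyme itself was at -0.37 over 7, with PRRX1, BARX1 and LHX8 lower and a sum of 1786 to 2266 with RA and 2339.5 to 4205 in the control.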

How the data were processed

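Affymetrix chicken arrays were hybridised with biotinylated cRNA made by a two-cycle protocol from 500 ng of RNA, per the labels. The authors deposited 1 linear intensity per probe set and array. Their mean without the top and bottom 2% of probe sets was 150.03 on every array, so the authors' values had been scaled to a common level. The summarisation software is not given in the sources used here, nor any background step.

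Of 38535 probe sets, 37693 were chicken (27166 with 1 symbol in the platform annotation, 177 with several, 10350 with none), and 26851 of the former had their gene identifier in the RefSeq table. Tested were 21354 above their array's median on at least 3 of 12 arrays. Intensities were analysed as log2(value + 16) in limma 3.58.1 (R 4.3.3), with 1 mean per group over all 12 arrays, two-sided tests and Benjamini-Hochberg adjustment. Lists use the brightest probe set per gene (10158 genes). Where at most 1 of 3 arrays of the lower group was above background, values were raised to background and the fold is "at least". Members, the 29 gene lists and the exclusion of Tris+RA replicate 1 were chosen with earlier results of these data known. Named genes were the 15 largest differences each way (non-overlapping groups, unadjusted p below 0.01, brightest probe set with 1 symbol), the genes called without that replicate, and list members; the probe set without a symbol, the dimmer ALDH1A2 probe set and HECW1 were named after their values were seen. The number of arrays limits the precision. The fit was tested on simulated data with noise drawn independently for each probe set and array. That test held no array effect shared between genes, so it does not cover the shared order of the RA arrays. Replicate numbers were taken as names, and same-numbered arrays were not treated as pairs. Deviations from group means correlated at 0.0615, 0.00106 and 0.0695 for same-numbered Tris arrays and at -0.0994 to 0.0375 for the others. These correlations over all probe sets cannot settle whether the pools were paired. In the 2 groups alone, the replicate block lowered the SE in most of the 39 probe sets of named genes. The SE went from 0.566 to 0.289 for CYP26A1, from 0.279 to 0.159 for PENK and from 0.244 to 0.133 for RET. In fewer it rose, as from 0.261 to 0.294 for MAB21L2. The smallest limma adjusted p over all probe sets was 0.245 with that block.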

Additional observations from a re-analysis of the deposited data

Results flagged for a closer look

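In 3 flagged genes every array moved one way with RA without Noggin and the opposite way with Noggin. In each the test of the difference did not pass over all probe sets. How many of all 10158 genes had this pattern is not given here, so it is not shown to be rare. Groups did not overlap in 5.44% of genes (higher) and 5.64% (lower) without Noggin. With Noggin these shares were 9.12% and 9.56%. HECW1, a ubiquitin ligase, was at 168, 191 and 188 in Tris+RA and 114, 97.0 and 104 in Tris+DMSO, but at 103 to 117 in Noggin+RA and 135 to 163 in Noggin+DMSO. The difference between the RA effects was -1.11 (SE 0.15, limma adjusted p = 0.125), the smallest adjusted p of that test. PRRX1, the mesenchymal homeobox gene, was lower with RA alone and was at 516 to 783 in Noggin+RA and 342 to 434 in Noggin+DMSO (difference 1.16, SE 0.27, limma adjusted p = 0.473). For 1 probe set of PEMT the difference was 1.58 (SE 0.27, limma adjusted p = 0.196), and its values of 9.55 to 24.6 in Tris+RA were below background on all 3 arrays. Groups of 3 are too small for a search for single stray arrays.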

How the results depend on the processing

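The count of probe sets changed by RA alone, 0, was 2 with median centring (1 higher, 1 lower), 10 with 64 added before log2, 8 with a trended robust prior and 2 at an adjusted p below 0.10. It ranged from 0 to 21 when 1 array was left out; it was 21 without Tris+RA replicate 1 and 2 without Noggin+RA replicate 2, an alternative added after seeing the data. It was 0 with quantile normalization, 1 added before log2, no filter, a stricter filter, array weights, the GAPDH ratio as a covariate and the 2 groups alone, and with the replicate block it was also 0 (smallest adjusted p 0.145 and, in the 2 groups alone, 0.245). The count for RA with Noggin, 95 (49 higher, 46 lower), was 51 with 1 added before log2, 45 with no filter, 42 with the replicate block and 25 to 58 when 1 Noggin array was left out, the lowest without Noggin+DMSO replicate 2. With median centring it was 105, split into 68 higher and 37 lower. Added after seeing the data, it was 46 to 94 when 1 Tris array was left out, 155 with 64 added before log2, 185 with array weights and 1 with the GAPDH ratio as a covariate. The count for the difference of the effects was 0 and ranged from 0 to 1 when 1 array was left out, the latter without Noggin+RA replicate 1, and was 1 with 64 added before log2. The cause was not tested. Over 39 probe sets of named genes, 671 of 702 alternative values kept direction and side of the threshold, 31 passed it in addition, and 0 turned. The kept direction was largely fixed in advance. The filters, the replicate block, the trended prior and the 2 groups alone leave the log2 difference itself unchanged. Genes chosen because their groups did not overlap cannot change sign when 1 array is left out. Of 377 alternative list medians, 66 moved by more than their spread over the RA arrays and 43 changed sign. Signal over background limits HOX genes and DLX6 in particular.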
